A study of Mus musculus with 8 samples.

Results

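The autosomal binding of Brdt was compared between 2 stages of male germ cells of adult wild-type C57BL/6 mice, meiotic spermatocytes and post-meiotic round spermatids. The members were all islands of the 2 wild-type anti-Brdt ChIP-seq lists on the 19 autosomes, 29531 in spermatocytes and 67996 in round spermatids, together 97527 of the 426082 islands in the 4 lists of the series. An island is a stretch of 200-base windows in which ChIP reads clustered above a control library, and it counted as met when any base of it (1 or more) also lay in an island of the second stage. Each stage had 1 ChIP library and 1 input library. Fractions from a BSA gradient were pooled over 10 mice, the antibody was an immunopurified rabbit antibody raised against recombinant Brdt, and chromatin had been cut with MNase to fragments of about 200 bp. The purity of the fractions could not be checked here, since island lists hold no expression values. With 1 library per stage there was no replicate error and no test between stages. The 95% intervals given for shares are Clopper-Pearson (exact binomial) and express counting error alone, because reads and neighbouring islands are not independent.

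Brdt is the testis-specific member of the BET family, proteins whose paired bromodomains bind acetylated lysines of histones. It is known to act in the gene programme of meiotic cells and later in the reorganisation of acetylated chromatin, when histones give way to transition proteins and protamines. Round spermatids are the haploid cells that follow the meiotic divisions and precede this exchange, so the stages lie on either side of the divisions. The study also used mice with a deletion of the first of these bromodomains (BD1del), whose lists are used here only as a further readout for the wild-type islands.

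Spermatocytes had fewer and longer islands than round spermatids. The median autosomal island spanned 2200 bases in spermatocytes (quartiles 1200 and 3600) and 1400 bases in round spermatids (quartiles 800 and 2200). Islands covered 83.4 Mb in spermatocytes, which is 3.46% of the 2415 Mb that the lists span on the autosomes. Those of round spermatids covered 117 Mb, or 4.83%. Neighbouring islands of the same list lay a median of 40000 bases apart in spermatocytes and 21400 in round spermatids. The smallest spacing was 800 bases in both lists, the next step of the window grid above the gap of 600 bases that joins windows. Single-window islands made up 2.89% of the spermatocyte list (852 islands) and 7.70% of the round spermatid list (5235 islands). The islands held 4408044 ChIP and 4683073 control reads in spermatocytes, against 3684584 and 5763558 in round spermatids. From the deposited folds, the control library was 1.79 times as large as the ChIP library in spermatocytes and 3.79 times in round spermatids, so the ratio of control to ChIP depth differed between the lists.

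Most spermatocyte islands were met by round spermatids, while most round spermatid islands were not met by spermatocytes. Of the spermatocyte islands 17162 of 29531 were met, which is 58.1% (57.6 to 58.7%), and 12369 were not. Of the round spermatid islands 18054 of 67996 were met, which is 26.6% (26.2 to 26.9%), and 49942 were not. Most overlaps joined 1 island of each stage, so the met counts were close. The gap between the 2 met shares thus follows largely from the sizes of the lists. Counted in bases, round spermatid islands covered 41.5% of the spermatocyte islands, and spermatocyte islands covered 29.7% of the round spermatid islands. Each share was 8.59 times the share of the autosomal span that the covering list held. The 2 ratios are equal by construction, since both shares count the same shared bases. The shared stretches summed to 34.6 Mb, which is 20.9% of the 166 Mb held by either stage. The share of spermatocyte islands met depended on the stringency of the lists. It was 28.9% with an FDR of at most 1e-10 and 15.4% when only the 10000 islands with the lowest p were kept at each stage. In lists of equal size with nearly all overlaps 1 to 1, the met shares of the stages are nearly equal by construction. With a fold of at least 2 the shares were 40.1% in spermatocytes and 7.25% in round spermatids. The shares of bases moved as well. They were 24.5% in spermatocytes and 4.85% in round spermatids with a fold of at least 2, and 22.7% and 16.8% with an FDR of at most 1e-10. In the lists of 10000 their order turned, to 12.5% in spermatocytes and 28.997% in round spermatids. The order of the 2 base shares follows from the summed island length of each list alone.

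Length separated met from not met islands more in round spermatids than in spermatocytes. The median met island was 2400 bases long in spermatocytes and 2000 in round spermatids, and the median island not met was 2000 and 1200 bases long. Among islands of at least 10 kb, 454 of 502 in spermatocytes were met (90.4%, 87.5 to 92.9%), as were 176 of 197 in round spermatids (89.3%, 84.2 to 93.3%). At the other end the stages differed. Of the single-window islands 58.6% were met in spermatocytes (55.2 to 61.9%) but 12.2% in round spermatids (11.4 to 13.2%). Long islands have more bases that can be met, whereas the covered share of bases does not grow with length by construction. That share in spermatocytes was 58.6% in single windows, 36.2% in islands of 2000 to 4800 bases and 54.5% at 10 kb and over, lowest in the middle of the range. In round spermatids it was 12.2%, 29.7% and 83.3% in the same classes.

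**Figure D1:**
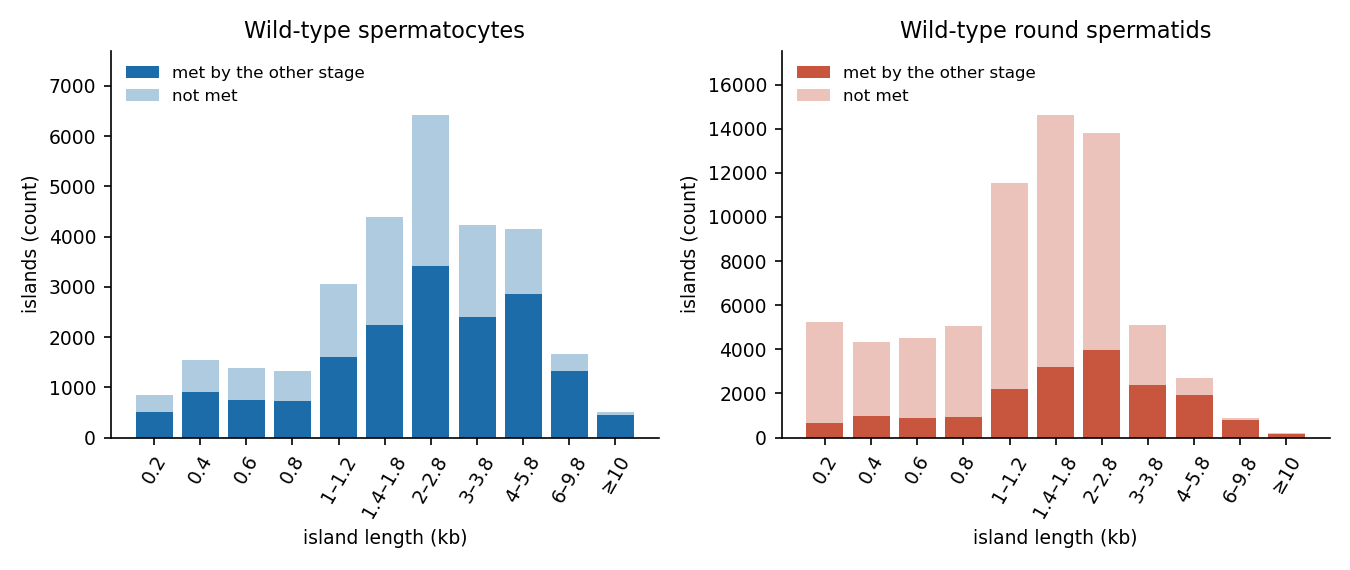
Number of autosomal islands (vertical axis) by island length in kb (horizontal axis, classes of unequal width) in wild-type spermatocytes and round spermatids. Dark bars are islands met by the other stage and pale bars, stacked on them, are islands not met; dark bars fill most of the classes from 4 kb upwards at both stages, while 4594 of the 5235 single-window islands of round spermatids are pale.

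Met islands held more control reads per kb than islands not met at both stages, and lower folds. The median control density was 45 reads per kb in met and 36.2 in not met islands of spermatocytes. In round spermatids it was 50.6 against 30.0. ChIP density differed less. Its median was 42.2 reads per kb in met and 37.9 in not met spermatocyte islands, and 27.5 against 25.7 in round spermatids. The authors' deposited fold, ChIP over control reads scaled by library size, had a median of 1.65 in met and 1.79 in not met islands of spermatocytes. In round spermatids these medians were 2.05 and 3.18. Long islands followed these list-wide medians only in part. At 5000 to 9800 bases control density kept the order, at 45.2 in met against 40.6 in not met spermatocyte islands. In round spermatids of that class it was 53.1 against 42.8, with median folds of 1.65 and 1.67. Among spermatocyte islands of 5000 to 9800 bases the median fold was 1.45 in met and 1.38 in not met islands, and at 10 kb or more it was 1.35 and 1.22. At 10 kb or more only 48 spermatocyte and 21 round spermatid islands were not met. Their median control density was higher than that of met islands, at 60.4 against 58.7 reads per kb in spermatocytes and 108 against 79.8 in round spermatids.

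Over each whole list the met share climbed from the islands with fewest control reads to those with most. In round spermatids the quintile with fewest control reads per kb (median 20) was met in 4.59% of islands (4.24 to 4.95%), and the next quintile (median 26.9) in 6.54%. The top quintile (median 70.0) was met in 61.4% (60.6 to 62.2%). In bases, the bottom quintile was covered to 3.69% and the next to 4.70%, close to the 3.46% of the autosomal span in spermatocyte islands, while the top quintile was covered to 67.3%. These lower 2 quintiles held 13600 and 13599 islands. In spermatocytes the bottom quintile (median 22.9 control reads per kb) was met in 34.7% of islands and covered to 18.99%, against 4.83% of the span in round spermatid islands. Its top quintile (median 82.0) was met in 73.5% and covered to 59.5%. Leaving out chromosomes 1 and 14 gave 4.48% and 55.3% for the bottom and top quintile of round spermatids, and 33.1% and 70.7% in spermatocytes. Among islands of 2000 to 4800 bases alone the same pairs were 8.20% and 78.7% in round spermatids, and 36.7% and 76.2% in spermatocytes. Among islands of 5000 to 9800 bases the pairs were 62.7% and 86.2%, and 61.7% and 79.5%. In that class the quintile just under the top was met most, in 92.0% of round spermatid and 86.0% of spermatocyte islands. Control reads enter the fold and the call itself, and their part in the met share was not tested.

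By fold the order over each whole list ran the other way. In round spermatids 55.6% of the islands in the lowest quintile of fold (median 1.69) were met, then 36.4%, 21.3%, 12.4% and, in the highest quintile (median 7.74), 7.10% (6.67 to 7.54%). In spermatocytes 64.3% of the lowest quintile (median 1.35) and 42.4% of the highest (median 3.69) were met. Control density and fold were linked within each list. Among the spermatocyte islands of the top quintile of control density, those under and over the list's median fold were met in 73.1% and 73.9%. In bases, however, those over the median fold were covered more, at 70.0% against 57.4%, and this held in each of the 5 quintiles of control density. In the bottom quintile of control density, the spermatocyte islands over the median fold were also met more often, in 35.1% against 31.0%, and were covered to 19.9% against 13.6%. In the quintile above it they were met in 51.3% against 48.2%. The middle quintile turned, with 62.0% over against 63.1% under the median fold, and the quintile just under the top gave 64.3% against 72.3%. In the top quintile of control density of round spermatids, 68.0% under and 41.5% over the median fold were met. In their bottom quintile these shares were 4.79% and 4.57%. The contrast between the lowest and the highest quintile of fold also depended on the list. With a fold of at least 2, which removes the islands of lowest fold, it was 7.16% against 5.28% in round spermatids. In the lists of the 10000 lowest p it was 18.45% against 16.2% in spermatocytes, but 44.45% against 1.95% in round spermatids. With an FDR of at most 1e-10 it was 25.6% against 2.62% in round spermatids.

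**Figure D2:**
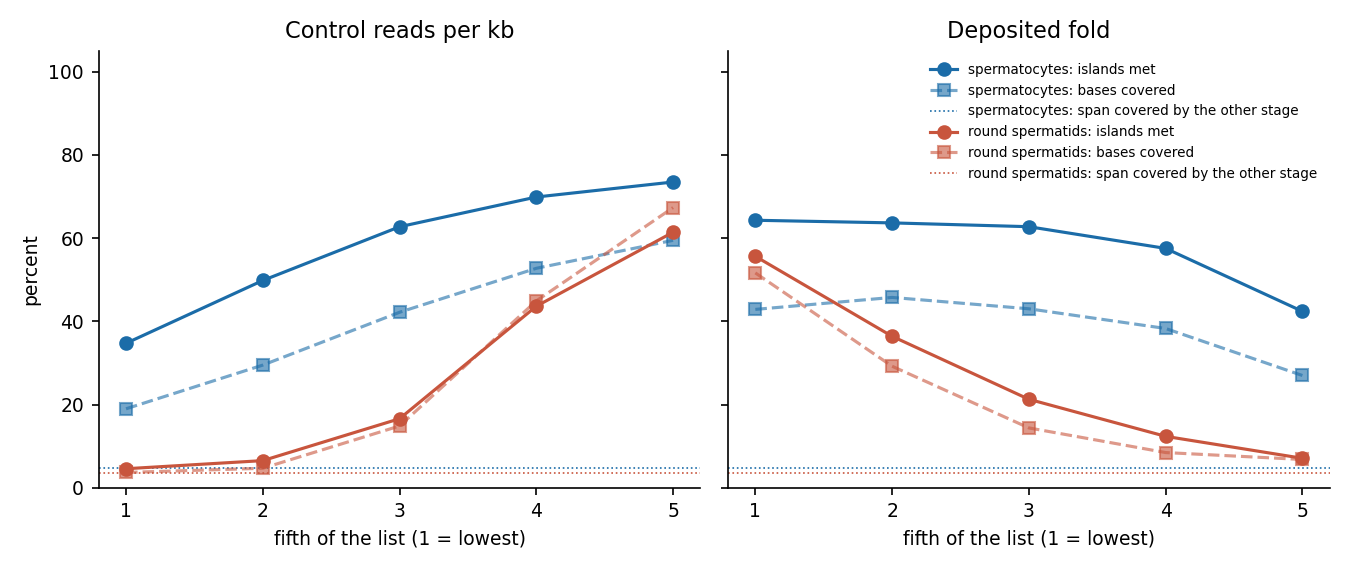
Percent of autosomal islands met by the other stage (circles, solid lines) and percent of their bases covered by it (squares, dashed lines) in the 5 quintiles of each list, by control reads per kb (left) and by deposited fold (right). Dotted lines give the share of the autosomal span covered by the other stage, 4.83% for spermatocyte islands and 3.46% for round spermatid islands; the round spermatid points of the lower 2 quintiles of control density lie near that line.

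The lowest folds in the lists differed. Among islands with 40 to 59 control reads the lowest fold was 1.44 in spermatocytes and 1.63 in round spermatids, and with 10 to 19 control reads it was 2.45 and 3.39. Of the spermatocyte islands not met with 10 to 399 control reads, 1506 of 11725 (12.8%) had a fold under the lowest that round spermatids had in the same class of control reads. Among those met the share was 11.2%. In the other direction it was 0 of 44949 islands not met. That count was fixed in advance, because the lowest fold was higher in round spermatids in every class of control reads. How many islands of one stage had signal below the lowest fold of the other could not be counted, since reads outside islands were not analysed here.

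Overlap was tied to the island itself and reached only a few kb beyond its borders. Round spermatid islands covered 41.5% of the bases inside spermatocyte islands, 19.6% of the window next to the border, 10.8% at 1 kb and 8.60% at 5 kb. At 100 kb the share was still 8.37%, above the 4.83% of the whole span. Without chromosomes 1 and 14, which hold the densest stretches, the same series ran from 35.6% inside to 18.1%, 8.94% and 5.39%, and to 4.996% at 100 kb, against 4.18% of the span. Around round spermatid islands on these 17 chromosomes, spermatocyte islands covered 22.8% inside, 10.6% next to the border, 3.39% at 5 kb and 3.02% at 100 kb, against 2.67% of the span. Islands not met had no wide zone free of the other stage. At 5 kb from spermatocyte islands not met on these chromosomes, 5.25% of windows lay in round spermatid islands. Around round spermatid islands the surroundings differed more: at 5 kb, spermatocyte islands covered 5.97% of windows beside met islands and 2.62% beside islands not met.

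**Figure D3:**
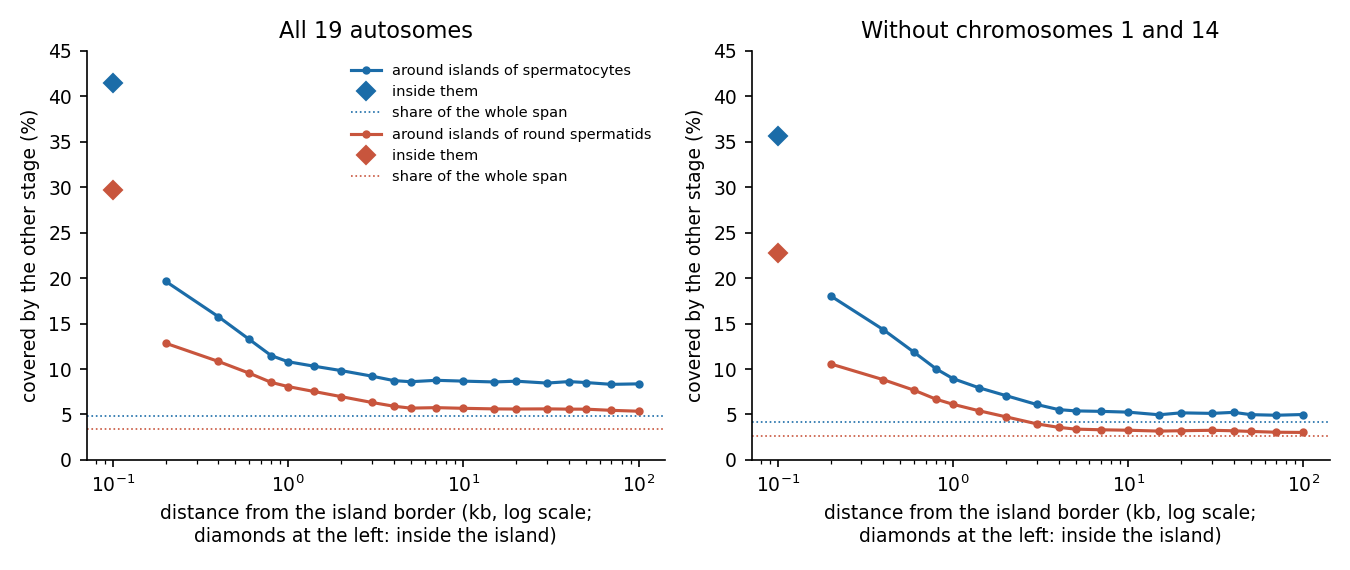
Percent of 200-base windows covered by islands of the other stage (vertical axis) against the distance from the island border in kb (horizontal log axis), for spermatocyte islands (blue) and round spermatid islands (red); diamonds at the left give the share inside the islands and dotted lines the share of the whole span. Cover drops within about 5 kb of the border, to 8.60% around spermatocyte islands on all 19 autosomes and to 5.39% without chromosomes 1 and 14.

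Spermatocyte islands that were not met lay closer to the nearest round spermatid island than the reverse. Their median distance to the nearest one was 10000 bases, with quartiles of 3600 and 21800, and 94.7% lay within 50 kb. Round spermatid islands not met lay a median of 31400 bases from the nearest spermatocyte island, and 64.5% lay within 50 kb. Only 3.40% of the former and 1.12% of the latter lay within 600 bases, the gap over which windows of 1 list are joined. Such distances shrink as the other list grows, and the round spermatid list was the larger. No distance from arbitrary positions was set beside them, so they do not show that islands not met lay unusually near or far.

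Crowded islands were met more often than isolated ones, in round spermatids above all. Where the nearest island of the same list was less than 2 kb away, 47.3% of round spermatid islands were met and 51.7% of their bases were covered. With the nearest at 10 to 50 kb these shares were 21.1% and 21.9%, and at 50 to 100 kb 17.3% and 16.3%. In spermatocytes the met share was 68.5% under 2 kb, 56.6% at 10 to 50 kb and 50.7% at 100 kb or more. Outside the dense blocks of chromosomes 1 and 14 described below, the shares under 2 kb were 39.8% in round spermatids and 62.5% in spermatocytes. Median control density was also higher in crowded round spermatid islands, at 42.0 reads per kb under 2 kb against 30.0 at 50 to 100 kb. Its part in these shares was not tested. Met islands also tended to follow each other along the chromosome. In round spermatids, outside the blocks, the next island was met after 32.8% of met islands and after 21.5% of islands not met. In spermatocytes these shares were 58.5% and 53.5%.

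Islands of the stages mostly corresponded one for one. Linking all islands that overlap gave 16601 groups with both stages. In 15001 of them (90.4%) 1 spermatocyte island met 1 round spermatid island. In 1077 groups (6.49%) 1 spermatocyte island overlapped several round spermatid islands, 2280 in all. The reverse, several spermatocyte islands that overlapped 1 round spermatid island, was found in 354 groups (2.13%), and 169 groups (1.02%) had several of each. Below, an island is said to hold the islands of the other stage that overlap it. These may reach past its borders. Outside the dense blocks 93.0% of the groups held 1 island of each stage. The blocks held 9.93% of all linked groups and 113 of the 169 with several of each (66.9%).

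In the 15001 pairs the spermatocyte island was more often the longer one than the shorter one. Its median length was 2200 bases, against 1800 for its partner. It was longer in 8056 pairs (53.7%), shorter in 5239 (34.9%) and of equal length in 1706. The round spermatid island lay inside the spermatocyte island in 5765 pairs (38.4%), and the spermatocyte island lay inside its partner in 3561 (23.7%). In 4443 pairs (29.6%) the islands were staggered, and in 1232 (8.21%) both borders were the same. Borders differed by a median of 400 bases, that is 2 windows, and 42.2% of borders differed by at most 200 bases. With its direction kept, outward or inward, the median difference was 0. Across the pairs, which share the build and the window grid, Spearman's rho between the stages was 0.603 for length, 0.705 for control reads per kb, 0.577 for ChIP reads per kb and 0.556 for fold. Control density was the most alike of these 4 measures between partners.

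**Figure D4:**
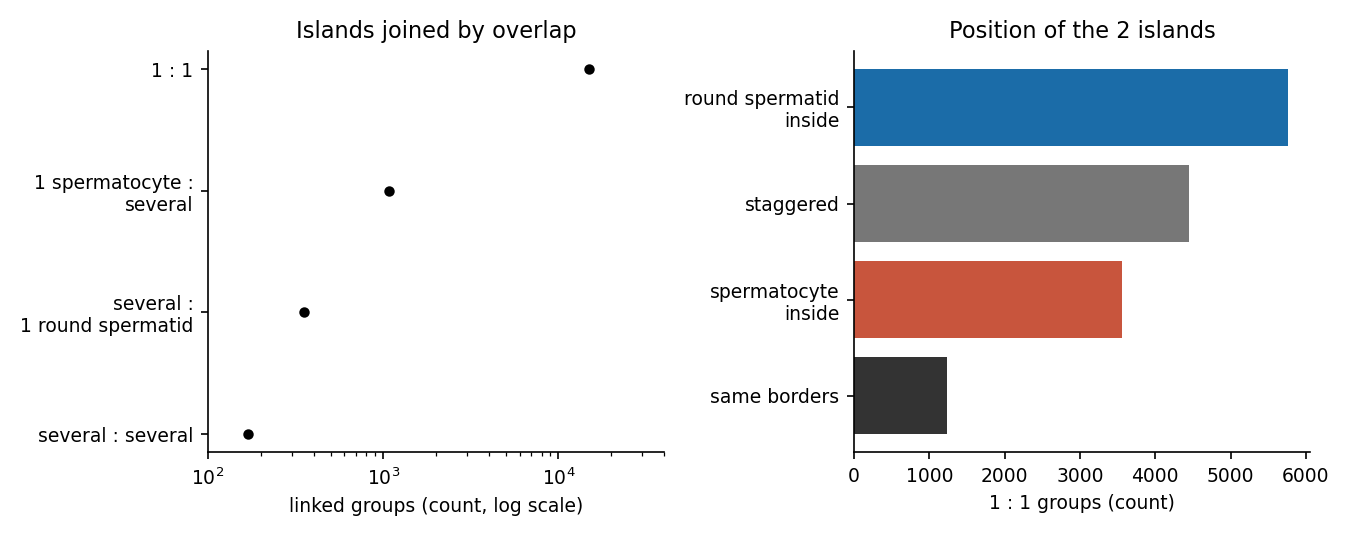
Left, number of groups of overlapping islands (horizontal log axis) by how many islands of each stage they hold; right, number of groups with 1 island of each stage (linear axis) by how the 2 islands lie. Pairs of 1 and 1 (15001 groups) far outnumber the other kinds, and the round spermatid island lies inside the spermatocyte island more often (5765) than the reverse (3561).

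Fold in these pairs was usually higher in round spermatids. Its median was 1.68 in spermatocytes and 2.10 in round spermatids, and it was higher in round spermatids in 11625 pairs (77.5%). The median difference on the log2 scale was 0.27, and the central 80% of pairs ran from -0.23 to 0.86. The folds come from libraries with different ratios of control to ChIP depth, and the lowest folds given above were also higher in round spermatids. The round spermatid partner was also the shorter one by median, and high folds lie mostly in short islands. Neither the direction nor the size of this difference is therefore comparable between the lists.

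Where islands were split at one stage, the gaps were short. The 1292 spermatocyte islands that held at least 2 round spermatid islands had a median length of 6000 bases, against 2200 for those that held 1. Of the 1453 gaps between the round spermatid pieces, 58.4% were 800 or 1000 bases long, the smallest gaps a list can have, and the median was 1000. The 539 round spermatid islands that held at least 2 spermatocyte islands had a median length of 5000 bases, and 70.9% of the 561 gaps were at most 1000 bases. Joining islands across gaps of up to 1000 bases took the share of pairs of 1 and 1 to 93.8%. The dense blocks held 36.1% of the split spermatocyte islands and 47.3% of the split round spermatid islands. Of all met islands, the block of chromosome 1 held 9.80% in spermatocytes and 10.5% in round spermatids, and that of chromosome 14 held 1.40% and 1.89%. Of the 6 spermatocyte islands that held 5 round spermatid islands, the 3 named by rule lay in the blocks. The island at chr14:7782801-7859200, 76.4 kb long with 3662 ChIP and 5249 control reads, held 5 round spermatid islands that covered 59.9% of it, at a fold of 1.25. On chromosome 1, chr1:21335001-21376400 likewise held 5, which covered 73.9%, at a fold of 1.53. Among round spermatid islands 2 held 4 spermatocyte islands each, both in the block of chromosome 1. In chr1:21698201-21709200, 11.0 kb long with a fold of 1.69, they covered 74.5%. In chr1:5086401-5094000, 7.6 kb long with a fold of 1.66, they covered 55.3%.

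Chromosomes that were densely covered at one stage were so at the other. Cover of the 19 autosomes ran from 1.83% (chromosome 11) to 10.1% (chromosome 1) in spermatocytes and from 3.38% (chromosome 11) to 10.96% (chromosome 1) in round spermatids. Across the 19 chromosomes Spearman's rho of the stages' cover was 0.982, and 0.975 without chromosomes 1 and 14, as a description of 2 libraries that share the build. The met share was also highest on chromosome 1 and lowest on chromosome 11. It ran from 46.8% (chromosome 11) to 71.8% (chromosome 1) in spermatocytes, and from 16.5% to 46.0% on the same chromosomes in round spermatids. A met share can rise with the cover of the other list alone. Round spermatid islands covered 55.7% of spermatocyte island bases on chromosome 1 and 26.7% on chromosome 11. Relative to their cover of the chromosome, 10.96% and 3.38%, the share was lower on chromosome 1. Chromosome 1 alone held 18.8% of the spermatocyte islands and 23.2% of those met. On every autosome round spermatids had more islands, from 1.69 times as many on chromosome 1 to 2.98 times on chromosome 9. They also covered more of each chromosome except chromosome 14, where spermatocytes covered 6.31% and round spermatids 6.27%. In bins of 1 Mb spermatocytes covered more than round spermatids in 255 of 2408 bins (10.6%), and the rank correlation of the cover of the stages was 0.710 across bins.

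**Figure D5:**
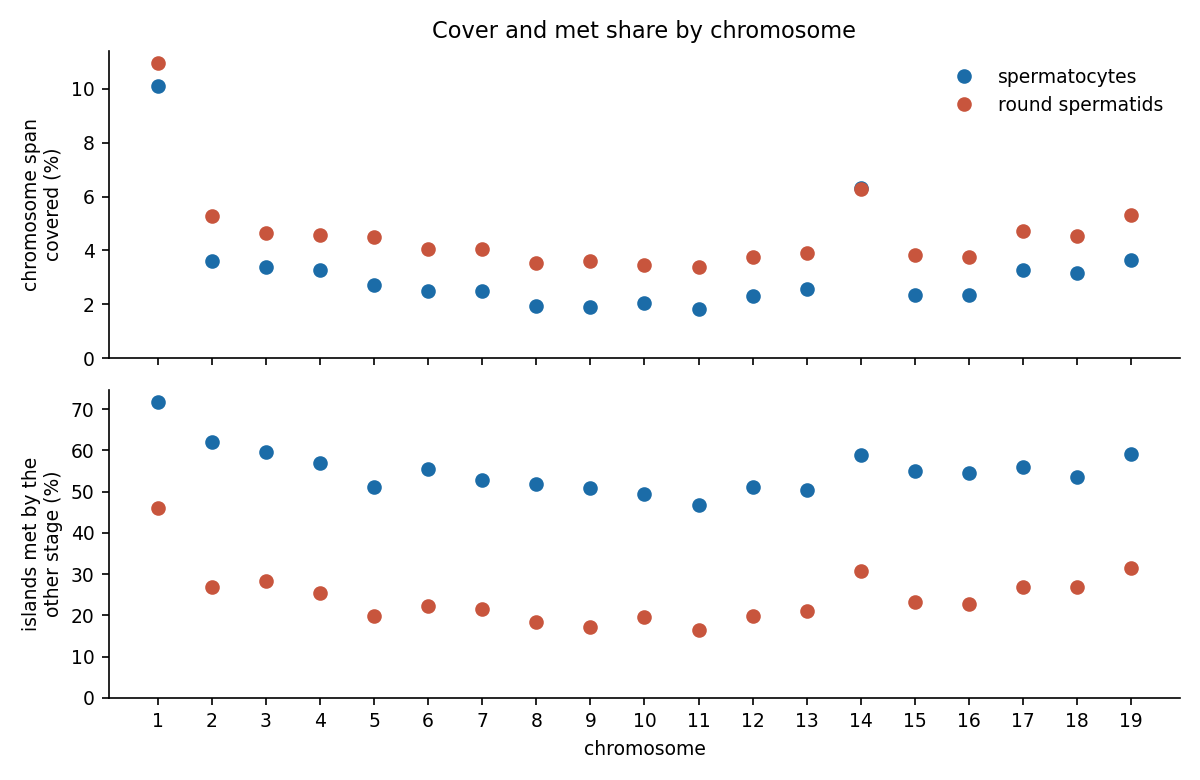
Percent of each chromosome's span covered by islands (top) and percent of its islands met by the other stage (bottom) for the 19 autosomes, 1 point per stage and chromosome (blue, spermatocytes; red, round spermatids). Chromosome 1 stands highest in all 4 series, at 10.1% and 10.96% cover and at 71.8% and 46.0% met.

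Cover was highest towards the ends of the chromosomes. Mouse autosomes carry the centromere at the start of the sequence, and each was divided into 10 stretches of equal length. Over all 19 autosomes the stretch next to the centromere was covered to 8.30% in spermatocytes and 7.85% in round spermatids, while the remaining stretches lay between 2.41 and 3.72% and between 3.86 and 5.43%. Without chromosomes 1 and 14 this first stretch was covered to 3.20% and 4.28%, in round spermatids less than the stretch before the last (4.53%). The stretch next to the telomere was the densest, at 3.602% and 5.28%. Islands there were more numerous, 15.3 per Mb in spermatocytes against 8.74 to 12.3 in the others, and 33.4 per Mb in round spermatids against 23.2 to 29.4. The median length in that stretch was 1800 bases in spermatocytes and 1400 in round spermatids, against 1800 to 2400 and 1400 in the others. The met share varied little along these chromosomes, from 53.0 to 57.1% in spermatocytes and from 20.3 to 26.6% in round spermatids.

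The overlap within the dense blocks differed from that of the other autosomal sequence once local cover was set beside it. The blocks, from 3 to 24 Mb of chromosome 1 and from 3 to 9 Mb of chromosome 14, were taken from earlier results of these data. On chromosome 1 the block was met in 77.7% of 2165 spermatocyte islands and 78.3% of 2416 round spermatid islands. In the block of chromosome 14 these shares were 76.9% of 312 and 87.5% of 391. Round spermatid islands covered 55.5% of the spermatocyte islands in the block of chromosome 1, which is 1.47 times the 37.7% that they covered of the block as a whole. In the block of chromosome 14 the ratio was 1.35. Over the autosomes without both blocks it was 8.67, on the rest of chromosome 1 it was 7.26, and on the rest of chromosome 14 it was 8.59. A ratio in the blocks has little room, since the cover there is already high. The block of chromosome 14 also stood out in length: the median spermatocyte island there was 9100 bases and the median round spermatid island 3800, with median folds of 1.35 and 1.52. Of the 502 spermatocyte islands of at least 10 kb the block of chromosome 1 held 154 and that of chromosome 14 held 144. Of the 197 in round spermatids they held 51 and 70. Chromosome 1 outside its block was also unlike other autosomes. Its spermatocyte islands were met in 68.0%, at a median control density of 50.6 reads per kb, against 54.7% and 39.7 on the 17 autosomes other than 1 and 14.

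The BD1del lists, which had no part in the division, met the islands shared by both wild-type stages more often than islands of 1 stage. Of the met spermatocyte islands 36.9% (36.1 to 37.6%) were met by BD1del spermatocytes and 46.4% (45.7 to 47.2%) by BD1del round spermatids. Of those not met the shares were 21.5% (20.8 to 22.2%) and 27.6% (26.8 to 28.4%). Over all spermatocyte islands the shares were 30.4% and 38.5%. Of the met round spermatid islands 35.2% and 43.9% were met by the same lists, and of those not met 14.04% and 20.1%. Over all round spermatid islands the shares were 19.7% and 26.4%. Met islands are longer, but the order was the same in bases. BD1del spermatocyte and round spermatid islands covered 23.3% and 24.1% of the bases of met spermatocyte islands, and 24.9% and 26.0% of those of met round spermatid islands. Among islands not met, BD1del spermatocyte islands covered 11.6% of the spermatocyte islands not met, which is 1.87 times their share of the span. BD1del round spermatid islands covered 11.4% of them, or 2.01 times. The islands that wild-type spermatocytes had and round spermatids lacked were thus covered by the BD1del list of their own stage, relative to its share of the span, no more than by that of the other. Round spermatid islands not met were covered to 8.58% (1.39 times) by BD1del spermatocytes and to 9.50% (1.68 times) by BD1del round spermatids. Without chromosomes 1 and 14 these 4 ratios were 1.66, 1.82, 1.30 and 1.57. Control density moved with these shares as well. BD1del round spermatid islands covered 6.51% of the bases in the bottom quintile of round spermatid control density and 34.7% in the top quintile, and its part was not tested. The names of the lists cite F3 reads in wild type and F3 with F5 reads in BD1del, so genotype and read set cannot be told apart. The BD1del round spermatid list has more autosomal islands than that of BD1del spermatocytes, 190782 against 105380. It covers less of the autosomal span, 5.66% against 6.18%.

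The 3 strongest pairs were ranked by fold, and fold and length are linked within each list: the median length was 1000 bases in the highest quintile of fold in spermatocytes and 600 in round spermatids. Among pairs of 1 and 1 with at least 10 control reads in each list, the leading one by the lower of its folds lay on chromosome 7. In spermatocytes it was chr7:129511201-129511600, with 84 ChIP reads, 10 control reads and a fold of 15.03. In round spermatids it was chr7:129511201-129512000, with 51 ChIP reads, 11 control reads and a fold of 17.6. The next, on chromosome 8, spanned 1400 bases in spermatocytes, chr8:48173801-48175200, at a fold of 11.7. Its partner of 400 bases, chr8:48174601-48175000, lay inside it at a fold of 18.6, and neither BD1del list had an island there. The next pair, chr3:116050201-116051400 in spermatocytes and chr3:116050601-116051200 in round spermatids, had folds of 11.4 and 13.98. BD1del spermatocytes covered the whole of the latter, and BD1del round spermatids none of it.

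In all 6 pairs with the most unlike folds, 3 in each direction, a narrow strong island of one stage met a broader and weaker island of the other. A ranking by fold ratio favours this shape, since high folds lie mostly in short islands. The strong islands had 12 to 18 control reads, not far above the limit of 10. On chromosome 14 the spermatocyte island chr14:15689401-15692000 had a fold of 1.93, and the round spermatid island chr14:15691801-15692400, with 138 ChIP and 12 control reads, had 43.6. They shared 33.3% of the shorter island. On chromosome 3 the spermatocyte island chr3:31038601-31042000 had a fold of 1.98 and its partner of 800 bases, chr3:31041401-31042200, had 29.8. In the opposite direction, chr7:25511601-25512600 had a fold of 16.1 in spermatocytes, and the island around it in round spermatids, chr7:25510401-25512800, had 2.69. An overlap of 1 base or more counts all of these as met.

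Islands not met were of different kinds at the top of each ranking. By fold they were at most 2000 bases long. The leading spermatocyte island, chr10:3831001-3833000, was covered whole by BD1del spermatocytes and to 90% by BD1del round spermatids. The next, chr12:108645601-108646400, with 134 ChIP and 12 control reads, had a fold of 19.98 and lay 10400 bases from the nearest round spermatid island. BD1del spermatocytes covered 75% of it and BD1del round spermatids none. The spermatocyte island chr4:21774601-21776400, with 101 ChIP reads and 10 control reads, had a fold of 18.1, lay 64800 bases from the nearest and was covered in part by BD1del spermatocytes alone (66.7%). The leading island of round spermatids, chr8:23163001-23163800, had a fold of 30.3 from 80 ChIP and 10 control reads. The next, chr13:89596601-89597000 had 23.8 from 69 ChIP and 11 control reads. The single window chr14:82285001-82285200 had a fold of 22.2 from 82 ChIP and 14 control reads. None of these 3 was covered in either BD1del list.

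By length, islands not met were broad stretches with many control reads and folds between 1.06 and 1.49. The longest in spermatocytes, chr5:26407201-26451000, spanned 43.8 kb with 3306 ChIP and 5344 control reads, a fold of 1.11, and lay 18800 bases from the nearest round spermatid island. BD1del round spermatid islands covered 56.2% of it. The next, chr14:8321601-8353000, spanned 31.4 kb at the same fold and lay 1 kb from a round spermatid island, inside the dense block of chromosome 14. The longest in round spermatids, chr17:3005201-3039200, spanned 34.0 kb with 1986 ChIP and 5467 control reads and a fold of 1.38, near the start of the chromosome. BD1del spermatocytes covered 99.4% of it and BD1del round spermatids all of it. Another, chr7:71610601-71641200, spanned 30.6 kb at a fold of 1.49. The island not met with most ChIP reads in round spermatids was chr2:3881001-3885800, with 2847 ChIP and 9268 control reads in 4.8 kb and a fold of 1.16. Its control density of 1931 reads per kb compares with a median of 30.0 for round spermatid islands not met. The spermatocyte island chr2:27349601-27359800, second by ChIP reads among those not met, had 423 control reads per kb and a fold of 1.18, and neither BD1del list covered it.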

How the data were processed

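The deposited tables give ChIP and control reads per island as whole-number counts, not normalized. Their p-value and FDR columns, deposited by the authors, compare ChIP with control after scaling. The deposited fold is a ratio, and it equals ChIP over control reads once each is scaled to its library. The submitters' processing notes name SICER and mm9, and the labels of the lists give windows of 200 bases and a gap of 600 bases. Aligner, read filters, duplicate handling and the control library behind each list are not given in the sources used here.

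Coordinates are 1-based on mm9. Lists were compared with Python 3.11.15, numpy 2.4.6, pandas 2.3.3 and scipy 1.17.1, and overlap counting was tested on simulated lists. The islands, blocks and comparisons were chosen with earlier results of these data known. Named regions were, by rule, the first 3 per stage by length, ChIP reads or fold (at least 10 control reads) among islands not met and by islands held, and, among pairs of 1 and 1, by the lower fold and by the fold ratio. Chromosome 18 was left out of them, and some are not printed. Alternatives changed the FDR, fold, list size, overlap, joining of islands, control reads and chromosomes. Genes and sequences were not analysed here, because the reference tables used another build.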

Additional observations from a re-analysis of the deposited data

How the results depend on the processing

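The share of spermatocyte islands met was 58.1%, and that of round spermatid islands 26.6%. These 2 shares differ largely through the sizes of the lists. Under an FDR limit of 1e-10 they were 28.9% and 9.99%, and among islands of fold 2 or more 40.1% and 7.25%. With equal lists of the 10000 lowest p they were 15.36% and 15.34%, which equal sizes and 98.5% of linked groups with 1 island of each stage fix to be nearly equal. The shares of bases covered, 41.5% and 29.7%, became 24.5% and 4.85%, 22.7% and 16.8%, and 12.5% and 28.997% under the fold limit, the FDR limit and equal lists, the last in reversed order. Their order follows from the summed island length of each list. When 50% of an island had to overlap, the shares of islands met were 43.0% and 22.2%, and without single-window islands 56.6% and 27.3%. Dropping the 1% with the highest control density gave 56.6% and 25.9%, dropping the 2 dense blocks 56.3% and 24.3%, and adding X and Y 58.9% and 30.3%. Without chromosomes 1 and 14, an alternative chosen after seeing the data, they were 54.7% and 22.997%. Merging within 1000 bases gave 25.8% and at least 10 control reads 28.2% in round spermatids, while the spermatocyte share moved by less than its interval. Linked groups held 0.951 spermatocyte islands per round spermatid island, and 1.001 with the 10000 lowest p. The cause was not tested. In each of these 11 alternatives the top quintile of control density was met more often than the bottom one at both stages. Median length of spermatocyte islands not met over met was 0.833, and 1 under the FDR limit, the fold limit, equal lists or the 50% overlap. Over the same alternatives it ran from 0.375 (equal lists) to 1 (fold limit) in round spermatids, against 0.6. No paired analysis was possible because each stage had 1 library, and for the same reason no replicate could be left out.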
